A study of Mus musculus with 17 samples.

Results

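Hair follicle stem cells (HFSCs) sorted from the skin of wild-type mice were compared after 6 months of alternate-day fasting (ADF, days with food alternating with days without) and after 6 months of feeding ad libitum (AL, food always available). There were 2 ADF libraries and 2 AL libraries of bulk RNA sequencing. The mice were sampled on the day that followed a fast, so each ADF value joins the long regime to its latest cycle. The genes described are those with a mean of at least 1 TPM, the unit of transcript abundance that is scaled for gene length and to a fixed total per library, over the 4 libraries, which left 12162 of the 35674 gene symbols in the table. The same series holds a short experiment on HFSCs fed AL or fasted for 24 h or 48 h, with 3 libraries each, which is used here for comparison only. The sample titles give the ADF libraries as fasted while their treatment field reads ad libitum, and the titles were followed. The sources used here do not give the age of the mice, the surface markers of the sort, the stage of the hair cycle or whether animals were pooled. Nothing says that the libraries of a group came from separate animals, so every p-value measures the spread between these libraries, which may be technical.

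HFSCs sit in the bulge of the hair follicle, where they divide rarely between hair cycles and are activated to build a new hair. They carry keratin 15, CD34 and transcription factors such as SOX9, LHX2 and NFATC1. Fasting releases fatty acids from adipose tissue and raises glucocorticoids. In many tissues the fatty acids act on PPAR nuclear receptors, which switch on genes of fatty acid import into mitochondria, beta-oxidation and ketone body synthesis, and the glucocorticoid receptor switches on genes such as Tsc22d3 and Fkbp5.

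At a Benjamini-Hochberg adjusted p under 0.05 in limma, 1 of the 12162 genes was called, which is 0.00822% of those tested. A further description therefore rests on values that did not pass the test. At an unadjusted p under 0.05 there were 1720 genes, or 14.1% of those tested. Every ADF library lay above every AL library for 29.6% of the genes, and every ADF library lay below every AL library for 21.0%. These shares are the background against which the gene groups are read, and the words "above" and "below" mean such a separation of the libraries. Leaving out AL library 2 gave 968 called genes, AL library 1 gave 14, and ADF library 1 gave 0. With 2 libraries against 2, an exact two-sided permutation test cannot go below p = 0.333.

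The 4 libraries had 11352 to 12087 genes at 1 TPM or more, and Krt15 was the most abundant transcript in each. The ADF libraries resembled each other more than the AL libraries did. Their log2(TPM + 1) values had a Pearson correlation of 0.970 across genes, against 0.906 between the AL libraries, and 622 genes differed by more than 2-fold between ADF libraries, against 2879 between AL libraries. AL library 1 stood apart, with correlations of 0.871 and 0.885 to the ADF libraries. AL library 2 correlated at 0.942 and 0.956 with them. The base composition of the transcripts also moved with the comparison, and values after GC adjustment stand beside several of the gene lists. Spearman's rho between the log2 fold change and transcript GC content was 0.366 across 12126 genes, which are not independent replicates, and 0.375 without AL library 1.

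The summed level of bulge stem cell markers was high in all 4 libraries. The summed TPM of 8 bulge markers was 36816 and 36420 in the ADF libraries and 47997 and 43908 in the AL libraries. Most of each sum was Krt15, and of the 8 markers 3 lay above, 3 lay below and 2 overlapped. Of 7 suprabasal epidermal markers, 0 lay above and 4 lay below, with sums of 2951 and 1065 TPM in ADF and 5265 and 5424 TPM in AL. Of 8 upper follicle markers, 5 lay above and 0 below, with sums of 6089 and 4539 TPM in ADF and 2867 and 3022 TPM in AL, most of it Krt17. Of 7 immune markers tested, 0 lay above and 4 below, with sums over all 13 of 170 and 91.9 TPM in ADF and 201 and 271 TPM in AL. Sums of fibroblast markers were 39.2 and 27.9 TPM in ADF and 77.4 and 32.9 TPM in AL, and those of melanocyte markers were 107 and 31.7 TPM in ADF and 50.9 and 24.6 TPM in AL. Cd3e, a T cell marker, was the 1 gene of the 13 immune markers listed at 0 in all 4 libraries. Retn was the 1 such gene of 7 adipocyte markers. Sums of adipocyte markers were 7.11 and 1.60 TPM in ADF and 0.119 and 3.36 TPM in AL. The part of these other cell types in the results was not tested.

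Genes of the cell cycle stood higher in the ADF libraries. Of the 33 listed genes, all of which were tested, 30 lay above, 1 lay below and 2 overlapped, and the median log2 fold change was 1.60, against 0.09 over all genes tested. The list was chosen with earlier results of these data known, so this contrast is a description and not an independent test. At an unadjusted p under 0.05 there were 23 of the 33, and none was called after adjustment. Their summed level was 1999 and 2068 TPM in ADF libraries and 1145 and 1182 TPM in AL libraries. In bulk RNA, more cells in cycle and more of these transcripts in each cell cannot be told apart.

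Regulators of mitosis were among the genes with the largest differences. Cdc20, which activates the anaphase-promoting complex, had 102 and 83.9 TPM in ADF libraries and 18.1 and 19.1 TPM in AL libraries. Its log2 fold change was 2.26 ± 0.24 (SE, n = 2 each; limma adjusted p = 0.14). Both ADF libraries were therefore far above both AL libraries, and the replicates of each group were close to each other. Ccnb1, the cyclin that drives entry into mitosis, had 64.6 and 46.6 TPM in ADF and 7.78 and 8.25 TPM in AL. Its kinase partner Cdk1 had 66.3 and 57.3 TPM in ADF and 8.36 and 13.1 TPM in AL. Ccnb2, a second B-type cyclin, had 59.9 and 47.4 TPM in ADF and 13.5 and 14.1 TPM in AL. These 3 genes had log2 fold changes of 2.63, 2.44 and 1.87, in that order, with SEs of 0.30, 0.31 and 0.27 (adjusted p = 0.14, 0.169 and 0.184 in limma). Birc5, the chromosomal passenger protein survivin, had 77.5 and 61.3 TPM in ADF and 4.6 and 13 TPM in AL. The mitotic kinase gene Aurkb had 33.4 and 25.3 TPM in ADF and 6.04 and 2.89 TPM in AL. In Aurka and Ube2c, a mitotic kinase and a ubiquitin-conjugating enzyme of anaphase, AL library 1 was lowest by far. Aurka had 22.3 and 15.4 TPM in ADF against 0.0403 and 2.23 TPM in AL, and Ube2c had 65.2 and 46.7 TPM in ADF against 0.669 and 13.7 TPM in AL.

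Most listed genes of DNA replication and S phase lay above as well. Mcm5, a subunit of the replicative helicase, had 43.7 and 53.6 TPM in ADF and 9.94 and 13 TPM in AL. Mcm2 and Mcm3, of the same helicase, had log2 fold changes of 1.63 (95% confidence interval 0.90 to 2.37) and 2.05 (1.22 to 2.89). Tk1, thymidine kinase, had 59 and 53.3 TPM in ADF and 9.23 and 17.4 TPM in AL. E2f1, a transcription factor of S phase entry, had 13.7 and 12.2 TPM in ADF and 0.0644 and 2.86 TPM in AL. Top2a, which untangles sister chromatids, had 36 and 33.4 TPM in ADF and 13.4 and 9.11 TPM in AL. Mki67, the usual marker of cycling cells, was low, with 3.59 and 3.36 TPM in ADF and 1.73 and 1.07 TPM in AL. The libraries of Pcna, the sliding clamp, overlapped, with 183 and 222 TPM in ADF and 232 and 194 TPM in AL, and so did those of Ccnd2. Ccnd1, a G1 cyclin, was the 1 gene below, at 31.6 and 31.2 TPM in ADF and 38 and 31.9 TPM in AL, with a log2 fold change of -0.14 (95% confidence interval -0.74 to 0.46). Ccnd3, another D-type cyclin, lay above with 150 and 152 TPM in ADF and 64.4 and 95.4 TPM in AL.

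**Figure D1:**
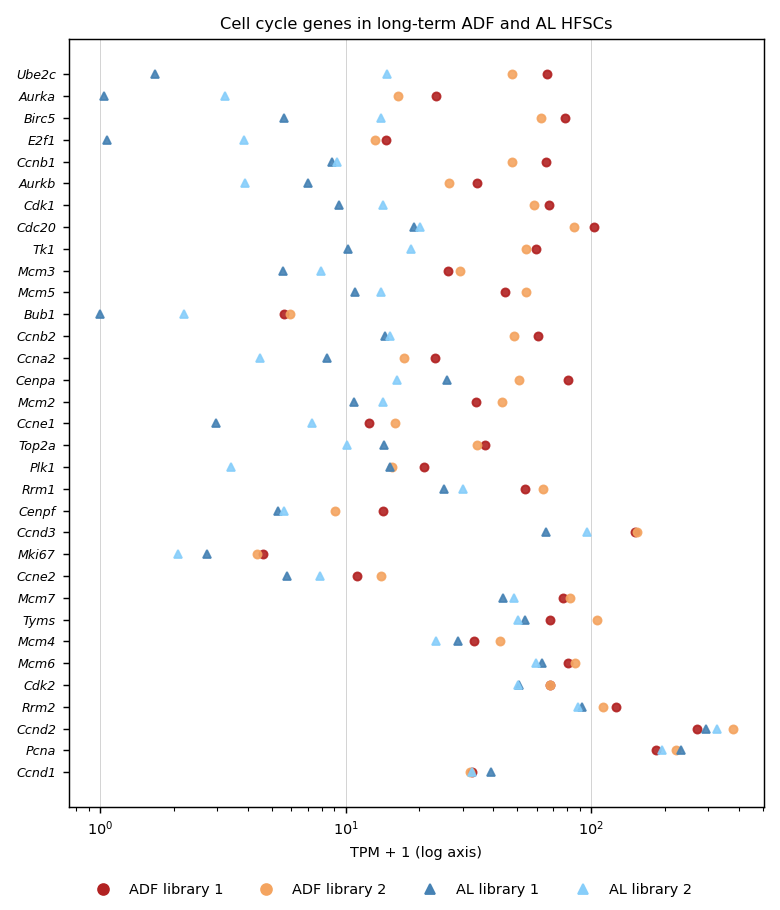
TPM + 1 on a log axis for the 33 cell cycle genes in each library, ordered by log2 fold change from the largest at the top; circles are the 2 ADF libraries and triangles the 2 AL libraries. In 30 genes both circles lie to the right of both triangles, and Ccnd2 and Pcna near the bottom overlap.

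Without AL library 1, 30 of the 33 cell cycle genes lay above AL library 2, where 42.2% of all genes lay above it and 34.6% below, with a median of 1.43. After adjustment for GC content, 29 of 33 lay above, where 28.8% of all genes did, with a median of 1.53. The median GC content of the 33 transcripts was 48.7%, against 49.7% over all genes tested.

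The start regions of 4 mitotic genes above are shown because mitotic genes are known to carry CCAAT boxes, bound by the factor NF-Y, and the element TTTGAA, which is a core of the cell cycle homology region bound by repressor complexes in resting cells. Each is the 120 bases before the gene's start on the gene's own strand, 5′ to 3′, from RefSeq on build GRCm38.p6. Capitals mark CCAAT and TTTGAA on either strand (ATTGG and TTCAAA on the opposite one), and overlapping matches were counted separately.
Cdc20 (minus strand, chr4:118437344-118437463): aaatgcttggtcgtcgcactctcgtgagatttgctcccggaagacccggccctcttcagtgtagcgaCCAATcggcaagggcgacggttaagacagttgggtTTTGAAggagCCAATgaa
Ccnb1 (minus strand, chr13:100786487-100786606): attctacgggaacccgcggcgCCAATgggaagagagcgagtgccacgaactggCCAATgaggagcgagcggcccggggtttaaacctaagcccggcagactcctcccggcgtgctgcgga
Cdk1 (minus strand, chr10:69352913-69353032): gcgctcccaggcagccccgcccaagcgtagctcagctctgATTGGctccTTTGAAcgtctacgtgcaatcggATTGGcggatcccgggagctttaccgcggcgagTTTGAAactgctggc
Ccnb2 (minus strand, chr9:70421555-70421674): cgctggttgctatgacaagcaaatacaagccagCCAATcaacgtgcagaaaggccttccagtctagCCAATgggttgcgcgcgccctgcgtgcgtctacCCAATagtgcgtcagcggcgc

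Cdc20 held 2 CCAAT and 1 TTTGAA matches, Ccnb1 held 2 and 0, Cdk1 held 2 and 2, and Ccnb2 held 3 and 0. Of the 33 cell cycle genes, 27 matched the promoter table. CCAAT was found in 19 of these 27 windows, which is 70.4%, against 26.2% of the 9266 windows matched to tested genes and 21.3% of all 32851 windows in the table. TTTGAA was found in 6 of the 27, which is 22.2%, against 3.79% of the windows of tested genes and 7.12% of all windows. A match is a stretch of letters and not a measured binding site.

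Among genes known to answer PPAR signalling during a fast, 21 of 27 were tested, 10 lay above, 2 lay below and none was called, with a median log2 fold change of 0.90. It was 0.41 without AL library 1 and 0.38 without ADF library 1. Angptl4, a secreted inhibitor of lipoprotein lipase, had 228 and 86.3 TPM in ADF and 25.8 and 36.5 TPM in AL. Cpt1a, which lets long-chain fatty acids enter mitochondria, had 35.1 and 24.4 TPM in ADF and 7.87 and 8.09 TPM in AL. Txnip, a thioredoxin-binding protein that limits glucose uptake, had 295 and 206 TPM in ADF and 67.9 and 73.8 TPM in AL. Their log2 fold changes were 2.16, 1.75 and 1.78, in that order, with SEs of 0.45, 0.33 and 0.24 (n = 2 each; limma adjusted p = 0.244, 0.223 and 0.184). In these 3 genes both ADF libraries were far above both AL libraries. Ucp2, a mitochondrial carrier, had 534 and 280 TPM in ADF and 105 and 114 TPM in AL. The pyruvate dehydrogenase kinase gene Pdk4 was low, with 2.91 and 1.34 TPM in ADF and 0 and 0.0133 TPM in AL. In each of these 5 genes ADF library 1 was higher than ADF library 2.

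Of 27 genes of beta-oxidation, all tested, 14 lay above and 4 below, and the median log2 fold change was 0.34, or 0.13 without AL library 1. After GC adjustment 10 lay above and 4 below, with a median of 0.26. Acaa2, the thiolase of the last step, had 310 and 334 TPM in ADF and 160 and 184 TPM in AL, with a log2 fold change of 0.90 (95% confidence interval 0.43 to 1.37). Hadha and Hadhb, the subunits of the trifunctional protein, had log2 fold changes of 0.83 (0.31 to 1.34) and 0.63 (0.17 to 1.09). Acadm, the medium-chain dehydrogenase, lay below with 121 and 101 TPM in ADF and 175 and 133 TPM in AL. Etfa, which takes electrons from these dehydrogenases, was also below, with 234 and 238 TPM in ADF and 280 and 299 TPM in AL. Pnpla2, the lipase that opens stored triglyceride, had 21.1 and 11.9 TPM in ADF and 3.36 and 7.21 TPM in AL. Cyp27a1, a mitochondrial sterol hydroxylase, had 37.4 and 19.2 TPM in ADF and 2.34 and 3.35 TPM in AL, with a log2 fold change of 2.87 ± 0.44 (SE, n = 2 each; limma adjusted p = 0.184).

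Of 25 glucocorticoid response genes tested, 11 lay above and 4 below, with a median log2 fold change of 0.00. The median was 0.61 without AL library 1 and 0.49 without ADF library 2, it was 0.42 with a pseudocount of 0.1, and after GC adjustment 8 lay above and 6 below. Tsc22d3, known as GILZ, had 555 and 429 TPM in ADF and 222 and 162 TPM in AL. Fkbp5, a chaperone of the glucocorticoid receptor, had 41.5 and 17.7 TPM in ADF and 9.12 and 10.9 TPM in AL. Ddit4, an inhibitor of mTORC1, had 24.7 and 17.2 TPM in ADF and 6.3 and 9.51 TPM in AL. Nr3c1, the receptor itself, lay below with 142 and 175 TPM in ADF and 329 and 236 TPM in AL. Klf15, a target of the receptor, had 47.1 and 38.4 TPM in ADF and 25.9 and 27.5 TPM in AL, a log2 fold change of 0.65 (95% confidence interval 0.05 to 1.26). Irs2, an adaptor of the insulin receptor, had 50.3 and 16.4 TPM in ADF and 7.45 and 13.8 TPM in AL.

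Clock genes lay on both sides. Of 20 tested, 8 lay above and 5 below, shares of 40% and 25% against 29.6% and 21.0% over all genes tested. After GC adjustment 6 lay above and 6 below, where 28.8% of all genes lay above and 18.3% below. Nr1d1, the repressor REV-ERB alpha, had 36.1 and 64.5 TPM in ADF and 10.4 and 14 TPM in AL. The output factors Dbp and Tef had 32.7 and 53.5 TPM and 47.9 and 50.3 TPM in ADF, against 20.3 and 11.5 TPM and 12 and 20.1 TPM in AL. Nfil3, a repressor at the same sites, had 210 and 149 TPM in ADF and 88.9 and 98.1 TPM in AL. Below were Arntl, the activator BMAL1, with 43.4 and 39.3 TPM in ADF and 87.7 and 60.7 TPM in AL, and its partner Clock, with 6.27 and 7.43 TPM in ADF and 14.2 and 10.1 TPM in AL. Bhlhe41, another repressor of the loop, had 14.8 and 13 TPM in ADF and 45.4 and 27.9 TPM in AL. The hour of sampling is not given in the sources used here, so feeding regime and time of day cannot be told apart.

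**Figure D2:**
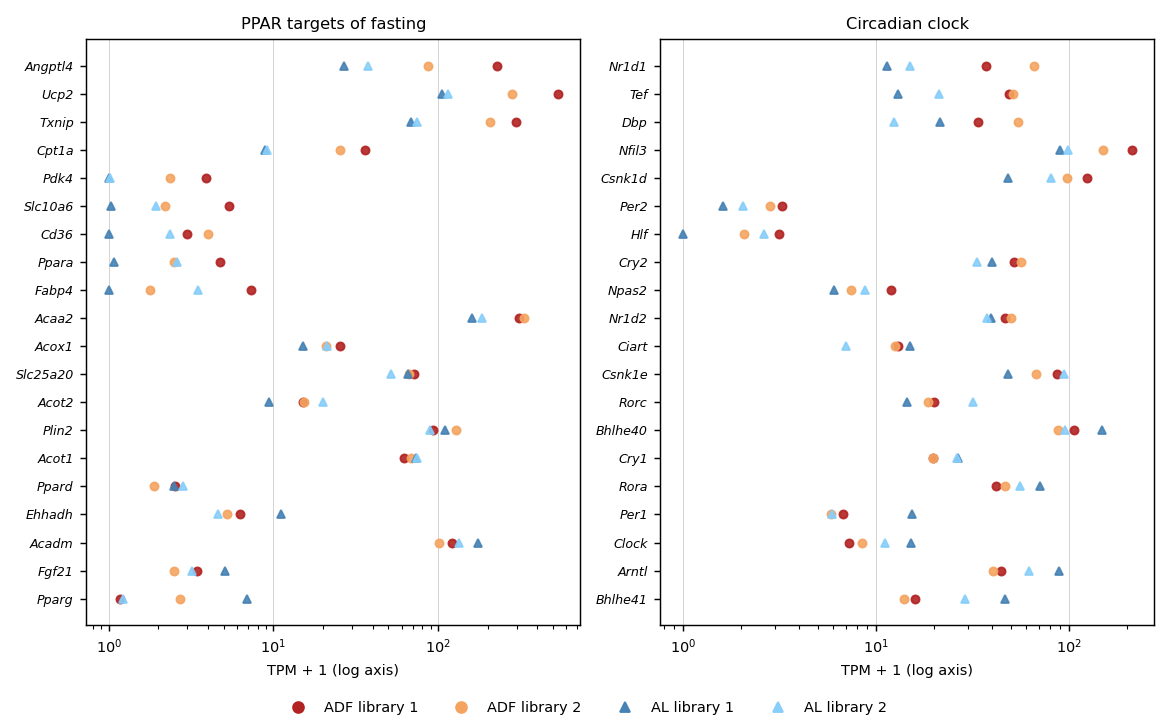
TPM + 1 on log axes for PPAR targets of fasting (left) and circadian clock genes (right) in each library, ordered by log2 fold change from the largest at the top; circles are ADF and triangles AL. Angptl4, Ucp2, Txnip and Cpt1a have both circles to the right of both triangles, and Arntl and Bhlhe41 at the foot of the clock panel have them to the left.

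The short experiment addressed a single fast, and its genes were followed in the long-term table. After 24 h, 1.47% of 11533 genes tested were called higher and 1.60% lower in limma, and after 48 h these shares were 13.3% and 1.98%. The 166 genes higher at both times, 1.44% of those tested, included 161 that were tested in the long-term table. Of these, 73 lay above in ADF, which is 45.3%, and 29 lay below, which is 18.0%, with a median log2 fold change of 0.27. Over all genes tested the shares were 29.6% above and 21.0% below. After GC adjustment 65 lay above and 24 below, with a median of 0.21, where 28.8% of all genes lay above and 18.3% below. The 91 genes lower at both times, 0.789% of those tested, included 88 that were tested in the long-term table. Of those 88, 30 lay above, which is 34.1%, and 24 lay below, which is 27.3%, with a median of 0.16. This median was 0.07 without AL library 1, 0.25 without ADF library 1, 0.09 with median-ratio scaling and 0.08 with quantile normalization. The tables were made separately, and no test was made across them.

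Individual genes of the acute fast differed in whether they stood apart after 6 months of ADF. Among the 10 with the largest 48 h change in each direction, several overlapped in the long-term libraries. These were Dpep1 and Slc7a8, higher in the acute fast, and Gpha2, Lgals1 and Clec11a, lower in it. Fam81a and Hs3st6, also lower in the acute fast, lay above in ADF. Best2 and Serpina3k, higher in the acute fast, had a mean under 1 TPM in the long-term libraries. Genes that moved in the acute direction follow. Slc10a6, a steroid sulphate carrier, averaged 0.787 ± 0.687, 47.7 ± 18.6 and 97.0 ± 41.5 TPM (SD, n = 3 each) in AL, 24 h and 48 h of the short experiment. Its long-term level was 4.35 and 1.21 TPM in ADF and 0.0297 and 0.931 TPM in AL. Klf15 averaged 39.7 ± 15.9, 219 ± 108 and 607 ± 148 TPM in AL, 24 h and 48 h, and its long-term values are given above. Cyp27a1 averaged 21.9 ± 27.5, 159 ± 24.0 and 217 ± 79.6 TPM in AL, 24 h and 48 h (SD, n = 3 each). Tm4sf1, a membrane protein, lay above in ADF with 56.1 and 29.2 TPM, against 5.58 and 20.6 TPM in AL. Ptn, the growth factor pleiotrophin, averaged 2016 ± 130, 314 ± 47.4 and 175 ± 113 TPM in AL, 24 h and 48 h. In the long-term libraries it lay below, with 1340 and 1505 TPM in ADF and 1926 and 1848 TPM in AL, a log2 fold change of -0.41 (95% confidence interval -0.93 to 0.11). Cck, the peptide cholecystokinin, had 13.4 and 46.8 TPM in ADF and 89 and 76.4 TPM in AL, with a log2 fold change of -1.67 (-2.91 to -0.43). Pfkfb3, which makes an activator of glycolysis, had 25.7 and 33.9 TPM in ADF against 0.0782 and 9.61 TPM in AL, where AL library 1 was lowest by far.

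Some genes of amino acid metabolism that were lower in the acute fast lay above in long-term ADF. Phgdh, the first enzyme of serine synthesis, had log2 fold changes of -2.52 at 24 h and -2.40 at 48 h, both called in the short experiment (limma adjusted p = 0.000977 and 0.000418). In the long-term libraries it had 93.3 and 86.1 TPM in ADF and 43.3 and 33.6 TPM in AL, a log2 fold change of 1.21 (95% confidence interval 0.64 to 1.78). Pycr1, which makes proline, had 6 and 12.4 TPM in ADF and 1.24 and 2.42 TPM in AL, and Sardh, a sarcosine dehydrogenase, had 93.1 and 94 TPM in ADF and 46.3 and 47.5 TPM in AL. Both were lower after 24 h and 48 h in the short experiment. Slc7a5, a carrier of large neutral amino acids, had 25.1 and 16.4 TPM in ADF and 4.86 and 8.91 TPM in AL. Of the 26 genes of the integrated stress response and amino acid synthesis tested, 12 lay above and 2 below. After GC adjustment 12 lay above and 6 below, and their median log2 fold change of 0.24 became 0.14.

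**Figure D3:**
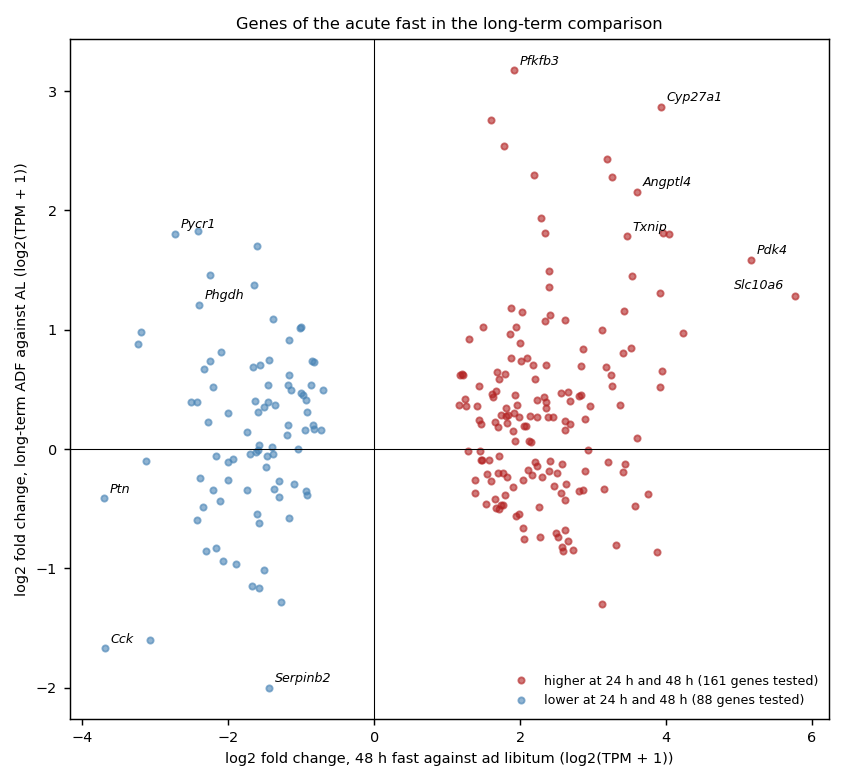
Log2 fold change of long-term ADF against AL (vertical axis) plotted against that of a 48 h fast against AL in the short experiment (horizontal axis), both on the log2(TPM + 1) scale, 1 point per gene. The 161 genes higher at 24 h and 48 h are on the right and the 88 lower are on the left; 73 of the first and 30 of the second lay above in ADF.

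Markers of stem cell identity went in both directions. Of 24 tested, 9 lay above and 8 below, shares of 37.5% and 33.3% against 29.6% and 21.0% over all genes tested. After GC adjustment 9 lay above and 2 below, where 28.8% of all genes lay above and 18.3% below. Krt15 had 33718 and 33190 TPM in ADF and 43948 and 40549 TPM in AL, with a log2 fold change of -0.34 (95% confidence interval -1.24 to 0.57). Cd34 had 666 and 898 TPM in ADF and 1267 and 946 TPM in AL, a log2 fold change of -0.50 (-1.11 to 0.11). Postn, the matrix protein periostin, had 851 and 1184 TPM in ADF and 1881 and 1356 TPM in AL. Fgf18, a growth factor of the resting bulge, had 12.8 and 15.9 TPM in ADF and 36.2 and 30.7 TPM in AL. Several transcription factors of the bulge lay above. Lhx2 had 275 and 149 TPM in ADF and 88.9 and 127 TPM in AL, Nfatc1 had 175 and 158 TPM in ADF and 102 and 103 TPM in AL, and Tbx1 had 679 and 423 TPM in ADF and 316 and 323 TPM in AL. Runx1 had 49.6 and 42.1 TPM in ADF and 28.2 and 24.2 TPM in AL. The WNT inhibitor gene Sfrp1 had 560 and 435 TPM in ADF and 153 and 276 TPM in AL. Sox9 and Lgr5 overlapped, with log2 fold changes of -0.13 (-0.67 to 0.42) and 0.15 (-0.40 to 0.70).

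Genes of quiescence also divided, with 4 of 18 above and 5 below. These shares are 22.2% and 27.8%, near the 29.6% and 21.0% over all genes tested. Cdkn1a and Cdkn1c, which encode the cell cycle inhibitors p21 and p57, lay below. Cdkn1a had 1538 and 1334 TPM in ADF and 2617 and 1960 TPM in AL, and Cdkn1c had 60.5 and 75.1 TPM in ADF and 158 and 115 TPM in AL. In the short experiment both were called higher at 48 h, with log2 fold changes of 2.04 and 1.85. Id3, a target of BMP signalling, lay above with 2483 and 2267 TPM in ADF and 1787 and 1401 TPM in AL. Gas6, a ligand of TAM receptors, had 383 and 436 TPM in ADF and 269 and 228 TPM in AL. Of 17 genes of the hair germ and of HFSC activation, 5 lay above and 2 below. These shares are 29.4% and 11.8%, against 29.6% and 21.0% over all genes tested. Their median log2 fold change of 0.29 became 0.01 without AL library 1. Gli1, a hedgehog target among those above, was at 8.6 and 6.55 TPM in ADF and 5.06 and 1.78 TPM in AL.

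Matrix and adhesion genes of basal cells had 14 of 27 above and 6 below, with a median log2 fold change of 0.61, or 0.30 without AL library 1. These shares are 51.9% and 22.2%, against 29.6% and 21.0% over all genes tested. The log2 fold changes ran from -1.02 to 1.57, and the members named next are all among those above. The summed level of the list was 11642 and 12058 TPM in ADF and 11904 and 11753 TPM in AL. After GC adjustment the median was 0.33, with 12 above and 5 below. Col17a1, a hemidesmosome collagen whose loss is known to accompany follicle ageing, had 1007 and 723 TPM in ADF and 312 and 488 TPM in AL. Lamb3, a laminin chain of the basement membrane, had 467 and 419 TPM in ADF and 159 and 235 TPM in AL. Npnt, a bulge matrix protein that anchors the arrector pili muscle, had 75.6 and 60.3 TPM in ADF and 21.1 and 23.9 TPM in AL. Itga3, an integrin that binds laminin, had 74 and 73.1 TPM in ADF and 34.9 and 32.9 TPM in AL. Their log2 fold changes were 1.13, 1.19, 1.55 and 1.09, in that order. Igfbp4, a secreted inhibitor of insulin-like growth factors, had 136 and 132 TPM in ADF and 47.1 and 48.6 TPM in AL, with a log2 fold change of 1.47 ± 0.21 (SE, n = 2 each; limma adjusted p = 0.184).

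The named genes that lay below in ADF included inflammatory and barrier genes. Ccl7, a chemokine that attracts monocytes, had 83.6 and 66.2 TPM in ADF and 279 and 320 TPM in AL. Its log2 fold change was -1.99 ± 0.22 (SE, n = 2 each; limma adjusted p = 0.14), with both ADF libraries far below both AL libraries. Serpinb2, a protease inhibitor of stressed and differentiating keratinocytes, had 108 and 145 TPM in ADF and 587 and 433 TPM in AL. Il1rn, the interleukin 1 receptor antagonist, had 10.5 and 8.01 TPM in ADF and 39.8 and 33.2 TPM in AL. Defb14, a beta-defensin, had 0.972 and 2.3 TPM in ADF and 26.8 and 14.1 TPM in AL, and Sprr2h, of the small proline-rich proteins of the cornified envelope, had 3.4 and 0.629 TPM in ADF and 22.5 and 38.7 TPM in AL. Fgfbp1, a carrier of fibroblast growth factors, had 55.1 and 63.4 TPM in ADF and 392 and 199 TPM in AL. The remaining named genes in this direction, namely Akap9, Uap1, Brix1, Ppig, U2surp, Ktn1, Trex2 and Slc6a14, had log2 fold changes of -1.33 to -2.24.

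Of 13 genes of stressed keratinocytes, 1 lay above and 5 below, with a median log2 fold change of -0.34, or -0.85 without ADF library 1. Ccl20, a chemokine, had 25 and 12.4 TPM in ADF and 59.1 and 49.1 TPM in AL, and the EGF receptor ligands Ereg and Hbegf had 7.44 and 2.32 TPM and 231 and 223 TPM in ADF, against 31.4 and 17.1 TPM and 353 and 468 TPM in AL. Krt17 was the gene above. Suprabasal genes were below as well. Krtdap, a keratinocyte differentiation protein, had 2047 and 703 TPM in ADF and 4058 and 4270 TPM in AL, Calm4 had 231 and 65.9 TPM in ADF and 568 and 451 TPM in AL, and Krt10 had 167 and 60.3 TPM in ADF and 208 and 211 TPM in AL. ADF library 2 was lowest in these 3 genes. A change in the content of differentiating cells and a change within stem cells cannot be told apart in these libraries.

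In protein folding, 3 of 30 genes lay above and 10 below. Hspa5, the chaperone BiP of the endoplasmic reticulum, had 912 and 961 TPM in ADF and 1634 and 1273 TPM in AL. Pdia6, a disulphide isomerase, had 226 and 265 TPM in ADF and 473 and 359 TPM in AL, and Manf had 155 and 156 TPM in ADF and 243 and 216 TPM in AL. In the synthesis of fatty acids and cholesterol, 7 of 32 genes lay above and 12 below. Their median log2 fold change was -0.20, and without ADF library 1 it turned to 0.07. Sqle, the squalene epoxidase, had 67.3 and 92.6 TPM in ADF and 161 and 163 TPM in AL. Msmo1 and Idi1, of the same pathway, had log2 fold changes of -1.05 (95% confidence interval -1.83 to -0.28) and -0.78 (-1.39 to -0.16). The regulators of the pathway lay above, with 26 and 22.8 TPM in ADF against 11.4 and 14.3 TPM in AL for Srebf1, and 82.8 and 88.2 TPM in ADF against 52.4 and 56.8 TPM in AL for Srebf2.

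Of 33 genes tied to ageing and senescence of these stem cells, 10 lay above and 7 below, shares of 30.3% and 21.2% that are near the background. Among them Mtor, a nutrient-sensing kinase, had 9.54 and 7.57 TPM in ADF and 2.87 and 3.26 TPM in AL, and Sirt1, a NAD-dependent deacetylase, had 5.68 and 6.14 TPM in ADF and 16.6 and 9.92 TPM in AL. Stat5a and Stat5b had log2 fold changes of 1.20 (95% confidence interval 0.04 to 2.36) and 1.01 (0.18 to 1.84). Of 33 genes of the p53 response and apoptosis, 11 lay above and 7 below, also close to the background. Bbc3, which encodes the death protein PUMA, overlapped with 43.2 and 24.6 TPM in ADF and 28.5 and 13.7 TPM in AL, a log2 fold change of 0.69 (-0.33 to 1.72). In the short experiment it was called higher at 48 h, with a log2 fold change of 2.83 (limma adjusted p = 0.0013). Plk2 and Mdm2, which are p53 targets, lay below, with log2 fold changes of -0.75 and -0.42. Of 36 antioxidant genes, 15 lay above and 5 below, and after GC adjustment 11 lay above and 6 below. Sod1, the cytosolic superoxide dismutase, had 575 and 648 TPM in ADF and 264 and 474 TPM in AL, and Srxn1, sulfiredoxin, lay below with 29.2 and 32 TPM in ADF and 50.8 and 47.7 TPM in AL.

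Of 31 FOXO target and autophagy genes, 14 lay above and 3 below. Gabarapl1, of the autophagosome, had 140 and 141 TPM in ADF and 82.5 and 90.2 TPM in AL. Bnip3, a receptor for mitophagy that was called higher at 48 h of the short fast, lay below with 70.9 and 89.1 TPM in ADF and 159 and 111 TPM in AL. Of 77 cytosolic ribosomal protein genes, 42 lay above and 4 below, with a median log2 fold change of 0.42. Without AL library 1 this median was 0.11, and 43 of the 77 lay above AL library 2, where 42.2% of all genes did. Of 75 nuclear genes of oxidative phosphorylation, 20 lay above and 0 below, shares of 26.7% and 0% against 29.6% and 21.0% over all genes tested. Their median log2 fold change of 0.29 became 0.00 without AL library 1. In that setting 21 lay above AL library 2 and 22 below it, where 42.2% of all genes lay above and 34.6% below. Ribosomal protein transcripts made up 6.22% and 6.29% of all TPM in ADF and 4.0% and 5.54% in AL, so AL library 1 was lowest. Of 13 mitochondrially encoded genes, whose median GC content was 37.1%, 3 lay above and 6 below, with a median log2 fold change of -0.16. After GC adjustment this turned to 5 above and 3 below, with a median of 0.27.

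Of 24 glycolysis genes, 10 lay above and 0 below, shares of 41.7% and 0%, and after GC adjustment 8 lay above and 3 below. For lipid storage and lipolysis 6 of 16 lay above and 2 below, and for interferon response and MHC genes 6 of 20 above and 5 below. These shares are 37.5% and 12.5%, and 30% and 25%, against 29.6% and 21.0% over all genes tested. For immediate early genes, which cell dissociation is known to induce, 7 of 30 lay above and 4 below. After GC adjustment this turned to 2 above and 8 below, where 28.8% of all genes lay above and 18.3% below. Without AL library 1 it was 15 above and 6 below, where 42.2% of all genes lay above and 34.6% below. Fosb, one of these genes, was at 1506 and 711 TPM in ADF and 264 and 432 TPM in AL. For hair shaft and inner sheath genes 4 of 14 lay above and 0 below, for the epidermis and upper follicle 6 of 24 above and 5 below, and for cAMP and adrenergic response 4 of 18 above and 5 below. Their shares above were 28.6%, 25% and 22.2%, in that order, against 29.6% over all genes tested. Their shares below were 0%, 20.8% and 27.8%, against 21.0%. Among the upper follicle genes, Lrig1 had 30.6 and 19.1 TPM in ADF and 2.18 and 12.6 TPM in AL.

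**Figure D4:**
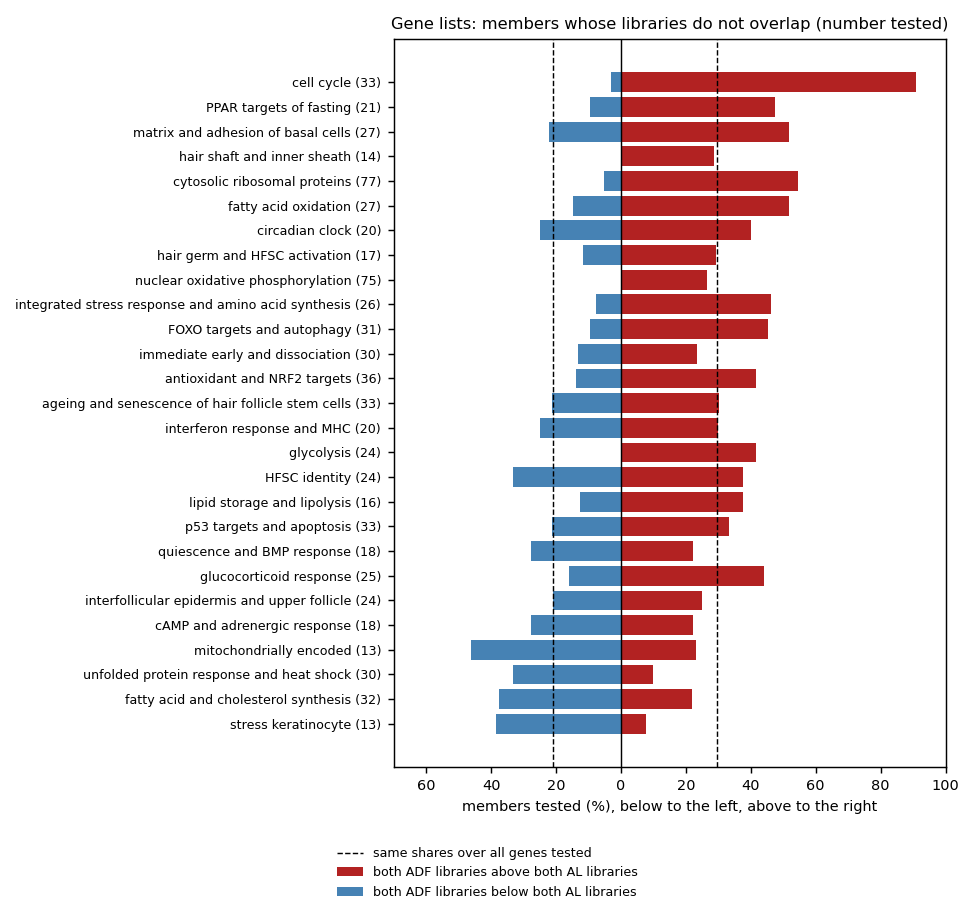
Share of tested members of each gene list for which both ADF libraries lay above both AL libraries (bars to the right) or below both (bars to the left), ordered by median log2 fold change, with the number tested in brackets; dashed lines are the shares over all genes tested, 29.6% and 21.0%. The cell cycle list reaches 90.9% above. The lists were chosen with earlier results of these data known.

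The gene called was Rpl31-ps8, a processed pseudogene of the ribosomal protein gene Rpl31 on chromosome 15 at 90764279 to 90764656 (GRCm38), which is named here after its values were seen. It had 250 and 133 TPM in ADF libraries and was listed at 0 in both AL libraries (limma adjusted p = 0.00468). The call was lost with no filter on low values (adjusted p = 0.44 in limma), with no mean-variance trend (0.149), without ADF library 1 (0.126) and without ADF library 2 (0.066). The parent gene Rpl31 had 300 and 403 TPM in ADF and 342 and 594 TPM in AL. Reads of near-identical copies can be split between them, so the value of the pseudogene is uncertain.

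Transcripts rich in G and C tended to stand higher in ADF. Differences between libraries of the same group also followed GC content. Spearman's rho across genes was 0.183 for ADF library 1 minus ADF library 2 and -0.118 for AL library 1 minus AL library 2. For each ADF library minus each AL library it was 0.264 to 0.383. Genes were divided into 5 equal bins by GC content. In the bin with the lowest GC content (median 41.1%), 12.5% lay above and 41.3% below, and in the bin with the highest (median 57.8%), 48.7% lay above and 8.16% below. The median log2 fold changes of these bins were -0.23 and 0.43, and without AL library 1 they were -0.22 and 0.35. After GC adjustment the 88 genes lower in the short fast had a median of -0.014 in place of 0.16.

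**Figure D5:**
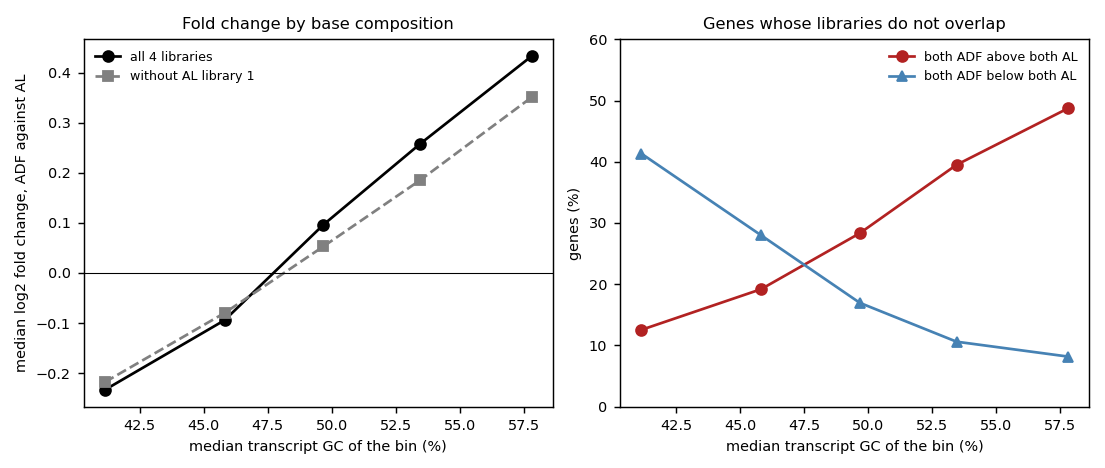
Median log2 fold change of ADF against AL (left; solid line all 4 libraries, dashed line without AL library 1) and share of genes whose libraries do not overlap (right) in 5 equal bins of the tested genes by transcript GC content, plotted at each bin's median GC. The share above runs from 12.5% to 48.7% and the share below from 41.3% to 8.16%.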

How the data were processed

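RNA of sorted HFSCs was amplified as full-length cDNA from small inputs and sequenced, per the labels' protocols. The authors deposited TPM values per gene symbol, which sum to 1000000 in each library, so depth is unknown. The submitters' processing notes name Salmon 1.4.0, DESeq2 1.36.0, Trimmomatic 0.39 and the build mm10 for the long-term libraries, with no role or order. Values were used as log2(TPM + 1). limma 3.58.1 in R 4.3.3 (empirical Bayes with a mean-variance trend, two-sided) was fitted to the 2 ADF and 2 AL libraries for genes with a mean TPM of at least 1, with Benjamini-Hochberg adjustment over all 12162 and a threshold of 0.05. Fold changes are on the log2(TPM + 1) scale and understate changes of low genes. The 9 HFSC libraries of the short experiment were fitted in the same way. The fit was tested on simulated data. Intervals are 95% limma intervals. GC content came from the longest GENCODE transcript of each symbol, and GC adjustment (loess of log2 values on GC, span 0.5 per library) was chosen after seeing the data. Genes were named from called genes, from the smallest unadjusted p among separated genes with a mean TPM of at least 10 (15 per direction with those called), from list members, and from the 10 acute-fast genes with the largest change per direction; predicted models were counted and not named, other than Rpl31-ps8 and those in the closing section. The members, the 27 gene lists and the 13 marker lists were chosen with earlier results of these data known. Alternatives were other pseudocounts, filters and scalings, no trend, robust fitting, a replicate block, and leaving out each library. The remaining table of the series is not used here. Some items are not reported here.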

Additional observations from a re-analysis of the deposited data

How the results depend on the processing

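The number of genes called, 1, was 0 with no filter on low values (1992 genes at an unadjusted p under 0.05), 0 with no mean-variance trend (1370) and 284 with a replicate block (190 higher and 94 lower). It ranged from 0 to 968 when 1 library was left out. The highest came without AL library 2 (716 higher and 252 lower), 14 came without AL library 1, 1 without ADF library 2, where the call was another gene, and 0 without ADF library 1 (429 at an unadjusted p under 0.05). Those fits assume that the lone library varies like the other group. The replicate block rests on a shared number only, since deviations of same-numbered libraries correlated at -0.004 across genes. Quantile normalization moved the median of all genes from 0.09 to -0.02 on the log2 scale. The cell cycle median of 1.60 was 1.03 with a pseudocount of 5, 1.47 with quantile normalization and 1.31 to 1.54 with a library left out. The PPAR median of 0.90 was 0.38 with a pseudocount of 5, 0.27 with no filter, 0.37 with a mean TPM of 5 or more, 0.56 with quantile normalization and 0.38 to 0.998 with a library left out. The median of genes higher in the short fast was 0.20 to 0.33 and that of genes lower in it 0.07 to 0.25 with a library left out, and -0.014 for the second after GC adjustment. The cause of these shifts was not tested. The change of Rpl31-ps8 was no longer called with no filter (log2 fold change 7.52), with no trend, without ADF library 1 (7.07) or without ADF library 2 (7.97). The direction of Hs3st6 reversed after GC adjustment (-0.10). With a library left out, the log2 fold change ranged from -0.44 to 0.24 for Lgals1, from -0.31 to 0.053 for Sox9 and from -0.013 to 0.31 for Lgr5, which crosses 0 in each. With TPM alone, counting error cannot be given.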

Other observations

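Melanocyte transcripts differed between the ADF libraries. Of 5 melanocyte markers tested, 2 lay above, 1 lay below and 2 overlapped. The shares above and below are 40% and 20%, against 29.6% and 21.0% over all genes tested. Their log2 fold changes ran from -0.65 to 3.00, and Pmel had the largest. Pmel, a melanosome protein, had 21.3 and 4.73 TPM in ADF libraries and 0.541 and 0.292 TPM in AL libraries, a log2 fold change of 3.00 (95% confidence interval 1.27 to 4.73). Cd74, which chaperones MHC class II, had 85.6 and 50.5 TPM in ADF and 108 and 153 TPM in AL.

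Without AL library 1, the 14 genes called were predicted models or pseudogenes. The 11 predicted models among those higher in ADF summed to 8528 and 12194 TPM in ADF libraries and to 5494 and 144 TPM in AL libraries 1 and 2, so AL library 2 stood apart from the other 3 in them. What these models are was not examined here beyond their symbols.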
